A study of Danio rerio with 16 samples.

Results

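A set of 3 genes whose mammalian counterparts respond to low oxygen, ankrd37 (MSTRG.300 in the files), p4ha2 (MSTRG.16326) and aldoab (MSTRG.3540), was followed in zebrafish liver to see whether they rise together on an obesity diet. They were chosen by symbol, with their response to diet in these libraries already known, and they are 3 of the 33724 genes with a value above 0 in at least 1 of 16 liver RNA-seq libraries. Because that response chose them, their levels by diet are a description and carry no test. By their mean differences the 3 genes were not higher together in any genotype, though in wild-type and Src(p53-) fish the values do not settle this. ankrd37 was higher in every obesity library, p4ha2 went both ways by genotype, and aldoab was listed at 0 in most libraries.

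The fish were of 4 genotypes, and each gave 4 libraries. The transgenic fish carry the X antigen of hepatitis B virus in HBx(p53-), the Src kinase in Src(p53-), and both proteins in HBx,Src(p53-), each driven in hepatocytes by the fabp10a promoter, with a p53 mutation, and WT fish are of the AB strain. No group has the p53 mutation without a transgene, so the mutation and the transgenes cannot be told apart in a comparison with WT. Feeding began at 3 months of age and ran for 8 weeks. Overfed fish (DIO) had 2 ml of Artemia given 3 times a day, high-fat fish (FAT) had 0.5 ml of Artemia given 1 time a day with 0.22 g of high-fat food given 3 times a day, and fish on the normal diet (NOR) had the 0.5 ml of Artemia. Every group also had about 0.22 g of powdered feed each day. DIO and FAT together are called the obesity diet. WT, HBx(p53-) and Src(p53-) fish each gave 1 DIO, 1 FAT and 2 NOR libraries, and HBx,Src(p53-) fish gave 2 DIO and 2 NOR libraries. By the legends that accompany the data, as many fish were sequenced as there are libraries.

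Cells sense oxygen through the HIF transcription factors. When oxygen is plentiful, prolyl hydroxylases mark the HIF alpha subunit and the Vhl protein directs it to degradation. When oxygen is scarce, the alpha subunit persists and switches on genes for glycolysis, blood vessel growth and collagen processing. In human cells ANKRD37, an ankyrin repeat protein, is a direct HIF target. P4HA2 is a catalytic subunit of the enzyme that hydroxylates prolines in collagen, and aldolase A, of which aldoab is one of the zebrafish copies, splits fructose bisphosphate in glycolysis.

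Levels are in FPKM, a fragment count corrected for transcript length and for library size, as the authors computed it. The values carry no read counts, so the number of reads behind a gene's value is not given. The authors list the mapped reads of each library, which were not used here. Summed over genes, libraries held 812158 to 1218152 FPKM, and 20348 to 23009 genes were detected. The src gene, the transgene of 2 genotypes, was higher in the 8 libraries of Src carriers (3.47 to 47.3 FPKM) than in the 8 others (0 to 4.24 FPKM), with an overlap at the edge (difference 2.08 in log2(FPKM + 1), exact permutation test, two-sided, over every split of the libraries, p = 0.000932). Hepatocyte markers (6 of 13 matched) summed to between 11195 and 41517 FPKM in obesity libraries and between 12858 and 27464 FPKM in NOR libraries, led by fgg.

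ankrd37 was low on the normal diet and higher on both obesity diets. In obesity libraries it had 2.59 and 8.84 FPKM in HBx,Src(p53-) (both DIO), 26.8 FPKM (DIO) and 4.15 FPKM (FAT) in Src(p53-), 2.93 FPKM (DIO) and 5.70 FPKM (FAT) in HBx(p53-), and 5.47 FPKM (DIO) and 10.4 FPKM (FAT) in WT. In NOR libraries it had 0.654 and 0.750 FPKM in HBx,Src(p53-), 1.09 and 2.48 FPKM in Src(p53-), 0.834 and 0.754 FPKM in HBx(p53-), and 2.37 and 0.765 FPKM in WT. All 8 obesity libraries lay above all 8 NOR libraries, with medians of 5.58 and 0.799 FPKM. The groups nearly touched: the lowest obesity library, HBx,Src(p53-) DIO 1, was 1.05 times the highest NOR library, Src(p53-) NOR 2, and after each library was scaled to the same total FPKM the same comparison gave 2.36 against 2.25 FPKM. Of the 3 genes, 1 thus had obesity libraries wholly above its NOR libraries, where 1 of all 33724 genes did (0.00297%), so ankrd37 was the only one. This is the contrast that chose the genes, and the share is given as a description. In bulk liver, more cells that express a gene and more of its RNA per cell cannot be told apart.

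In each genotype both obesity libraries of ankrd37 lay above both NOR libraries. That was so for 15.1% of genes in HBx,Src(p53-), 7.28% in Src(p53-), 9.60% in HBx(p53-) and 9.47% in WT, and for 7 genes (0.0208%) in all 4. The mean FPKM of the obesity libraries was 8.14 times that of the NOR libraries in HBx,Src(p53-), 8.68 times in Src(p53-), 5.43 times in HBx(p53-) and 5.07 times in WT (n = 2 libraries each). On the log2(FPKM + 1) scale, which understates the change of a gene at low level, the differences were 1.80 in HBx,Src(p53-), 2.15 in Src(p53-), 1.52 in HBx(p53-) and 1.82 in WT (SE 0.76 each, from the spread that all libraries share). At least 2-fold upwards were 5.43% of genes in HBx,Src(p53-), 2.45% in Src(p53-), 2.03% in HBx(p53-) and 2.87% in WT. Differences between the genotypes were not tested. The Src(p53-) value was 0.93 without its DIO library and 3.37 without its FAT library, and the HBx,Src(p53-) value was 1.08 without DIO 2 and 2.53 without DIO 1. With any 1 library left out, that of HBx(p53-) ran from 1.13 to 1.90 and that of WT from 1.35 to 2.29. Common to the 4 genotypes, the difference was 1.82 (SE 0.34), and between 1.57 and 2.01 with any 1 library left out. With the DIO libraries alone it was 1.91 and with the FAT libraries alone 1.69. In this common difference 0.466% of genes were at least 2-fold higher and 0.528% at least 2-fold lower, and ankrd37 ranked 16 of 33724. It was also 1 of 7 genes at least 2-fold higher in each of the 4 genotypes (0.0208%). Of these 7, the ones with a symbol were ankrd37, cited2 and alox5b.3, the last of them named here after its values were seen. Red blood cell markers (5 of 6 matched, none at 0 throughout) leaned the same way with an overlap, their sum being 336 to 779 FPKM in obesity libraries (median 496) and 226 to 485 FPKM in NOR libraries (median 405). The sum of the exocrine pancreas markers (11 of 17 matched, none at 0 throughout) had medians of 64.2 FPKM in obesity libraries and 31.1 FPKM in NOR libraries. The part of either in the ankrd37 result was not tested.

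**Figure D1:**
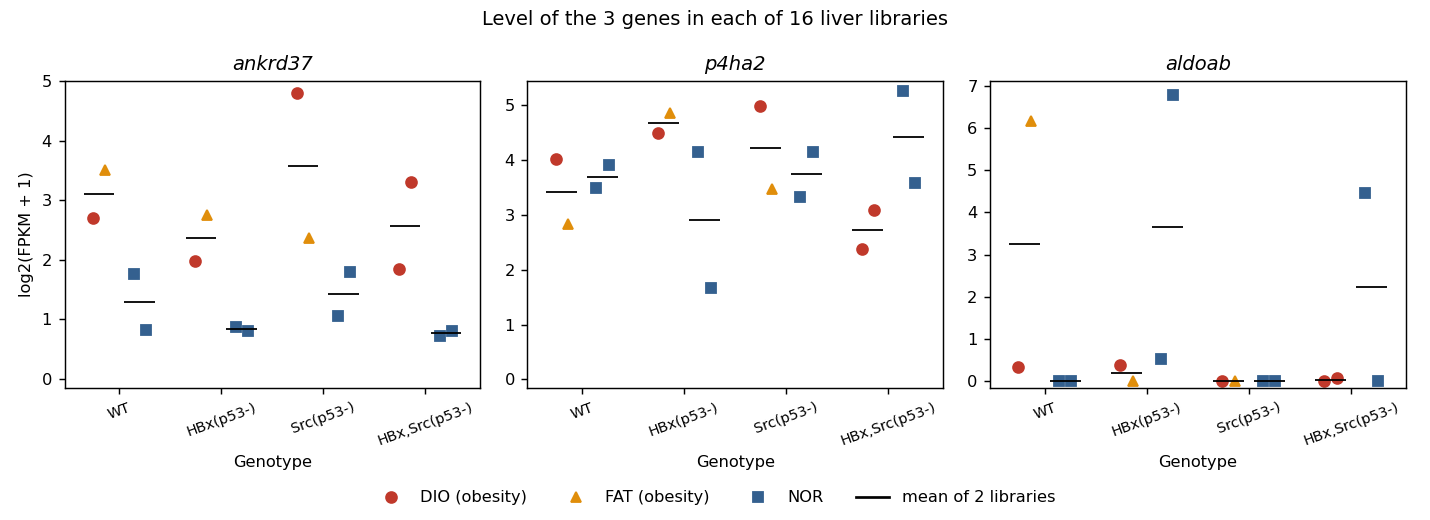
Level of ankrd37, p4ha2 and aldoab in 16 liver libraries as log2(FPKM + 1), by genotype, with obesity libraries (circles DIO, triangles FAT) left of NOR libraries (squares) and lines at the mean of the 2 libraries. The 8 obesity libraries of ankrd37 lie above its 8 NOR libraries, those of p4ha2 overlap, and aldoab exceeds 20 FPKM in 3 libraries of mixed diet.

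p4ha2 did not differ by diet in one direction. In obesity libraries it had 4.17 and 7.44 FPKM in HBx,Src(p53-) (both DIO), 30.4 FPKM (DIO) and 10.03 FPKM (FAT) in Src(p53-), 21.5 FPKM (DIO) and 28.0 FPKM (FAT) in HBx(p53-), and 15.1 FPKM (DIO) and 6.11 FPKM (FAT) in WT. In NOR libraries it had 37.2 and 10.999 FPKM in HBx,Src(p53-), 8.95 and 16.8 FPKM in Src(p53-), 16.6 and 2.16 FPKM in HBx(p53-), and 10.2 and 13.9 FPKM in WT. The diets overlapped over most of their range, and their medians were 12.6 FPKM on the obesity diet and 12.5 FPKM on NOR. The highest library of all was on the normal diet.

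By genotype, both obesity libraries of p4ha2 lay above both NOR libraries in HBx(p53-), where 9.60% of genes did so, and below both in HBx,Src(p53-), where 18.7% of genes did so. The log2 difference was 1.78 in HBx(p53-), −1.70 in HBx,Src(p53-), 0.48 in Src(p53-) and −0.27 in WT (SE 0.85 each). In HBx,Src(p53-) 5.84% of genes were at least 2-fold lower. Single libraries moved each of these values. The HBx(p53-) value was 0.54 without NOR 2 and 3.01 without NOR 1, and the HBx,Src(p53-) value was −0.86 without NOR 1 and −2.53 without NOR 2. Those of Src(p53-) and WT changed sign: the Src(p53-) value was −0.27 without DIO and 1.24 without FAT, and the WT value −0.86 without DIO and 0.32 without FAT. Common to the genotypes the difference was 0.07 (SE 0.51), and it turned to −0.31 without HBx(p53-) NOR 2 and stood at 0.39 without HBx,Src(p53-) NOR 1.

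aldoab was listed at 0 in 9 of the 16 libraries and exceeded 20 FPKM in 3. In obesity libraries it had 0 and 0.0485 FPKM in HBx,Src(p53-) (both DIO), 0 in both Src(p53-) libraries, 0.305 FPKM (DIO) and 0 (FAT) in HBx(p53-), and 0.257 FPKM (DIO) and 70.7 FPKM (FAT) in WT. In NOR libraries it had 21.0 FPKM and 0 in HBx,Src(p53-), 0 in both Src(p53-) libraries, 0.446 and 107.9 FPKM in HBx(p53-), and 0 in both WT libraries. The 3 high libraries were 1 on FAT and 2 on NOR, each of another genotype, and each stood beside a library of the same genotype under 1 FPKM. Among 849 abundant genes, whose mean reaches 100 FPKM, 10 have a 0 in some library. aldoab is not one of these abundant genes, and how common a 0 is at its level was not examined. Whether a listed 0 of aldoab is a failed estimate was not tested. For this reason no mean FPKM or fold is given for aldoab. Its log2(FPKM + 1) differences take each listed 0 as 0 and rest on the 3 high libraries, and the one in WT is set against NOR libraries at 0, so it is no measure of a fold. In HBx(p53-) both obesity libraries of aldoab lay below both NOR libraries, where 11% of genes did so.

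Markers of skeletal muscle, where aldolase A is abundant in mammals, were at or near 0. Of the 25 muscle markers 20 were matched, 10 of them were at 0 in every library, and 18 stayed under 1 FPKM in every library. Their summed level was 0.0764 to 1.76 FPKM in obesity libraries and 0.260 to 1.82 FPKM in NOR libraries. The highest of them was mylz3, a myosin light chain, at 1.58 FPKM or less.

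Its sister copy behaved otherwise. aldoaa was detected in every library, at 30.7 to 133 FPKM on the obesity diet (median 63.6) and 19.3 to 122 FPKM on NOR (median 43.8). In the libraries where aldoab was high, aldoaa had 133 FPKM in WT FAT, 36.6 FPKM in HBx(p53-) NOR 2 and 51.0 FPKM in HBx,Src(p53-) NOR 1, within its range elsewhere apart from WT FAT, which held its highest value. How the authors' assembly split reads between the 2 copies was not tested. aldocb had 0.554 to 1.76 FPKM on the obesity diet and 0.408 to 3.73 FPKM on NOR, and aldoca was at 0 throughout. Neither aldoaa nor aldocb was called for the common difference (limma, adjusted p = 0.822 or more, log2 differences 0.38 and −0.03).

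**Figure D2:**
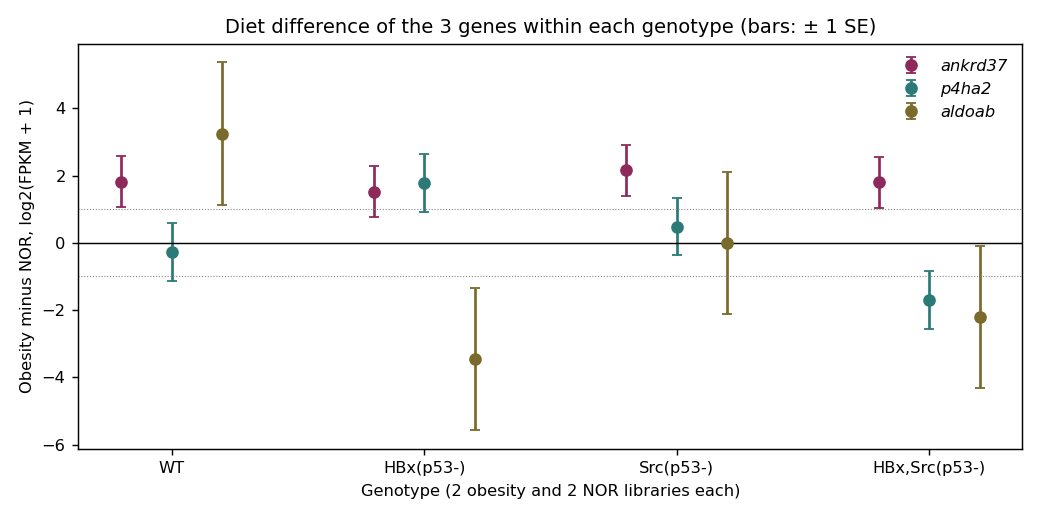
Difference between obesity and NOR libraries in log2(FPKM + 1) for each gene and genotype, with bars of 1 SE and dotted lines at 2-fold. ankrd37 lies between 1.52 and 2.15 in all 4 genotypes, while p4ha2 spans −1.70 to 1.78 and aldoab spans −3.46 to 3.25.

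By their mean log2 differences, the 3 genes were not higher together in any genotype. All 3 were higher on the obesity diet in 0 of the 4 genotypes. In WT this rests on p4ha2 at −0.27 (SE 0.85), which was 0.32 without FAT. In HBx(p53-) ankrd37 and p4ha2 were both higher, by 1.52 and 1.78. There it rests on aldoab at −3.46 (SE 2.11), which was −0.34 without NOR 2. In Src(p53-) it rests on aldoab, which was listed at 0 in every library of that genotype. The values therefore do not settle these genotypes. Of the 8 obesity libraries, 2 had all 3 genes above their NOR medians, 4 had 2 of them and 2 had 1 of them. The NOR median of aldoab is 0, so any trace of it counts as above, and the 2 libraries with all 3 genes, WT DIO and HBx(p53-) DIO, had 0.257 and 0.305 FPKM of it. No obesity library had 2 genes above the highest NOR library of each, since p4ha2 and aldoab never passed theirs.

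Groups of genotype and diet were also put in order. For ankrd37 the order ran Src(p53-) DIO, WT FAT, HBx(p53-) FAT, WT DIO, HBx,Src(p53-) DIO, Src(p53-) FAT, HBx(p53-) DIO, Src(p53-) NOR, WT NOR, HBx(p53-) NOR and HBx,Src(p53-) NOR, from high to low. The gap to the next group was larger than the replicate SD (0.59 in log2(FPKM + 1), from the 5 groups with 2 libraries) for the first and the second of these groups, and the other 8 of 10 neighbouring gaps were within it. For p4ha2 the order opened with Src(p53-) DIO and HBx(p53-) FAT, HBx,Src(p53-) NOR came above all 3 WT groups, and all 10 gaps were within the SD of 1.01. For aldoab 9 of 10 gaps were within the SD of 2.42, and 5 groups tied at 0.

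Covariation from library to library within a diet does not use the difference between diets, and was tested in the 8 obesity and in the 8 NOR libraries. None of the 6 relations passed (exact two-sided permutation tests, Benjamini-Hochberg adjusted p = 0.629 or more for Pearson and 0.976 for Spearman). In obesity libraries ankrd37 and p4ha2 had r = 0.33 and rho = 0.33 (n = 8, exact permutation p = 0.436 and 0.428), and r turned to −0.68 once the 2 libraries farthest from the median of ankrd37 were left out. In NOR libraries the same pair had r = 0.02 and rho = −0.10 (n = 8, exact permutation p = 0.946 and 0.840), and r = −0.27 without the 2 farthest. ankrd37 and aldoab had r = 0.23 and rho = 0.11 on the obesity diet and r = −0.43 and rho = −0.55 on NOR (n = 8 each, exact permutation p = 0.524, 0.786, 0.188 and 0.167), with r = 0.62 and −0.48 without the 2 farthest. p4ha2 and aldoab had r = −0.37 and rho = −0.23 on the obesity diet and r = −0.34 and rho = 0.03 on NOR (n = 8 each, exact permutation p = 0.461, 0.583, 0.360 and 0.976), with r = −0.57 and 0.52 without the 2 farthest.

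**Figure D3:**
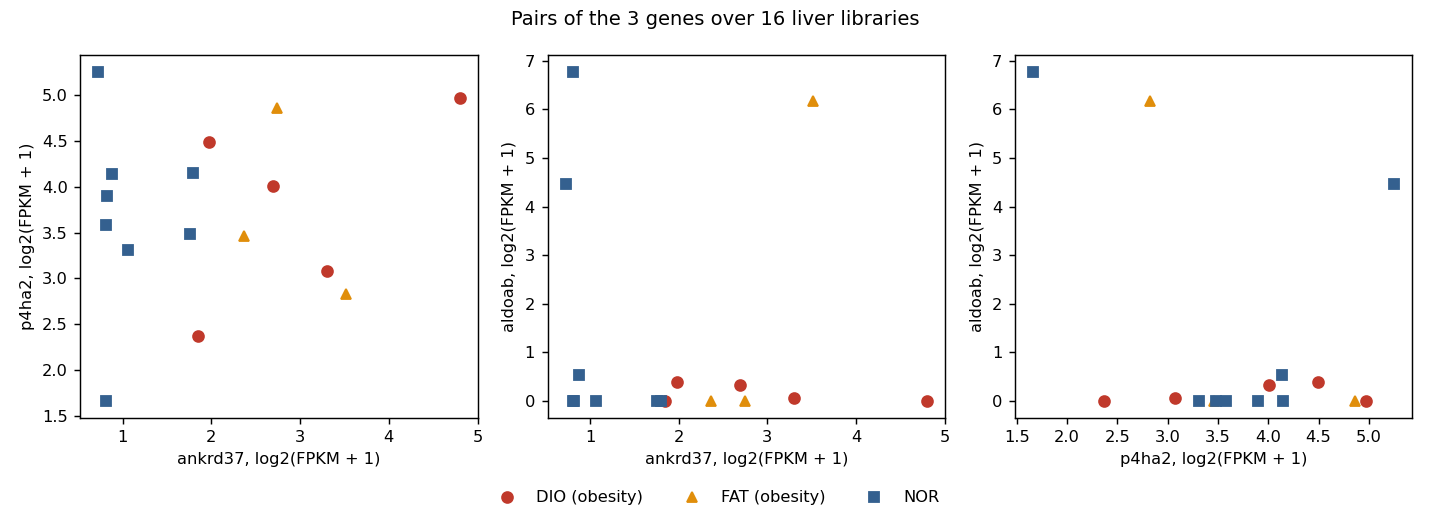
Each pair of the 3 genes over 16 libraries in log2(FPKM + 1), with circles for DIO, triangles for FAT and squares for NOR. Within a diet no pair follows a line, and the 3 libraries with high aldoab have 6.11, 2.16 and 37.2 FPKM of p4ha2.

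Genotype was compared next, as a contrast that did not choose the genes. Of the 3 genes, 0 were called between Src carriers and non-carriers, where 0.219% of all genes were (limma, adjusted p under 0.05), and 0 had an unadjusted p under 0.05, where 11.4% did. ankrd37 had a median of 2.53 FPKM in Src carriers and 2.65 FPKM in non-carriers, a log2 difference of 0.19 (SE 0.38, limma adjusted p = 0.820, exact permutation p = 0.768). p4ha2 had medians of 10.5 FPKM in carriers and 14.5 FPKM in non-carriers, a log2 difference of 0.10 (SE 0.43, limma adjusted p = 0.918, exact permutation p = 0.840). Its sign turned under 2 other scalings. aldoab was at 0 in 6 of the 8 carrier libraries and differed by −1.21 (SE 1.06, limma adjusted p = 0.663, exact permutation p = 0.219). Unlike the limma contrast, the permutations did not hold diet fixed, so differences between diets are part of the spread behind their p.

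Against WT, 0 of the 3 genes were called in any transgenic type by limma, where 1.11% of all genes were in HBx,Src(p53-), 0.205% in Src(p53-) and 0.332% in HBx(p53-). At an unadjusted p under 0.05 there were again 0 of the 3, where 13.2% of genes passed in HBx,Src(p53-), 6.62% in Src(p53-) and 7.62% in HBx(p53-). ankrd37 differed from WT by −0.53 in HBx,Src(p53-), 0.31 in Src(p53-) and −0.59 in HBx(p53-) (SE 0.54 each, limma adjusted p = 0.722 or more). p4ha2 differed by 0.02 in HBx,Src(p53-), 0.42 in Src(p53-) and 0.23 in HBx(p53-) (SE 0.60 each, limma adjusted p = 0.978 or more), and the HBx,Src(p53-) value turned negative under other scalings. aldoab differed by −0.49 in HBx,Src(p53-), −1.62 in Src(p53-) and 0.30 in HBx(p53-) (SE 1.50 each, limma adjusted p = 0.870 or more). The 3 contrasts share the WT libraries. FAT was then set against DIO, where 0.00297% of all genes were called (5.81% at an unadjusted p under 0.05) and 0 of the 3 at either. The fit uses all libraries, HBx,Src(p53-) among them, which has no FAT library, so its values differ from the plain difference of means over the 3 genotypes with both diets. In those 3 genotypes ankrd37 had 4.15 to 10.4 FPKM on FAT and 2.93 to 26.8 FPKM on DIO (fitted log2 difference −0.24, SE 0.54, plain difference −0.28). p4ha2 had 6.11 to 28.0 FPKM on FAT and 15.1 to 30.4 FPKM on DIO (fitted −0.16, SE 0.81, plain −0.77). aldoab differed by 2.09 in the fit (SE 1.75, plain 1.82), and by −0.36 without WT FAT (limma adjusted p = 0.877 or more for each fitted value with all libraries). The SEs are large beside these differences, and a p above the threshold does not show that the groups are alike.

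The genes whose levels followed each of the 3 most closely over all 16 libraries were looked up among 5329 genes that have a symbol and average 1 FPKM or more. For ankrd37 they were mief2, an adaptor of mitochondrial division (Pearson r = 0.78), vhl (r = 0.77) and slc29a4a, of the family of nucleoside and monoamine transporters (r = 0.77). vhl encodes the protein that directs HIF alpha to degradation, and it is on the list of HIF pathway components, as is cited2, the next by rank at 4 (r = 0.75), whose mammalian protein competes with HIF for a coactivator. vhl and cited2 also stood higher on the obesity diet, and the difference between diets is part of r. Within a diet, r of vhl with ankrd37 was 0.71 over the 8 obesity libraries and 0.48 over the 8 NOR libraries. The same values were 0.69 and 0.48 for mief2, and 0.73 and 0.17 for slc29a4a. The genes most like each of the 3 were picked by r over these same libraries, so their r within a diet is no separate check. The other genes named here from the lists of HIF pathway components and hypoxia targets had widely spread ranks. angptl4, an inhibitor of lipoprotein lipase, ranked 26 (r = 0.56), hif1al2 ranked 115 (r = 0.44) and bhlhe40 ranked 147 (r = 0.41). igfbp1b, igfbp1a, hmox1a and errfi1a ranked between 862 and 1975. epas1b, the HIF-2 alpha subunit, ranked 3334 (r = −0.20) and hif1ab, a HIF alpha subunit, ranked 4299 (r = −0.31).

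p4ha2 was followed most closely by zfp36l1b, a protein that promotes mRNA decay (r = 0.85), ctdspl2a (r = 0.71) and inhbab, an activin subunit (r = 0.69). zfp36l1b, picked by r over these same libraries, had r = 0.80 within the obesity libraries and 0.92 within the NOR libraries. The same values were 0.51 and 0.91 for ctdspl2a, and 0.49 and 0.91 for inhbab. aldoab was followed by itm2cb (r = 0.82), ric8a, a chaperone of G protein subunits (r = 0.82), and akt2, a kinase of insulin signaling (r = 0.76). With 9 libraries at 0, these values for aldoab rest on few libraries. For the mean of the 3 genes, each scaled to unit variance, the closest were furina (r = 0.84), irf2bp2b (r = 0.80), macrod1 (r = 0.73), fem1a (r = 0.71) and cited2 (r = 0.68).

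cited2 and vhl had the widest diet differences on the HIF list. On the obesity diet cited2 had 2.58 and 6.96 FPKM in HBx,Src(p53-) (both DIO), 17.8 FPKM (DIO) and 3.25 FPKM (FAT) in Src(p53-), 11.5 FPKM (DIO) and 5.48 FPKM (FAT) in HBx(p53-), and 3.17 FPKM (DIO) and 3.62 FPKM (FAT) in WT. On NOR it had 3.68 FPKM and 0 in HBx,Src(p53-), 2.14 and 3.62 FPKM in Src(p53-), 0 and 1.60 FPKM in HBx(p53-), and 1.12 FPKM and 0 in WT. All 8 obesity libraries were above the NOR median of 1.36 FPKM, and the groups overlapped between 2.58 and 3.68 FPKM. As with ankrd37, its highest library was Src(p53-) DIO. vhl had 10.3 to 44.1 FPKM on the obesity diet (median 23.7) and 6.29 to 24.7 FPKM on NOR (median 11.3), with 7 of 8 obesity libraries above the NOR median. Neither passed the test over all genes (limma, adjusted p = 0.822 for both, log2 difference 1.65 with SE 0.41 for cited2 and 0.95 with SE 0.35 for vhl).

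**Figure D4:**
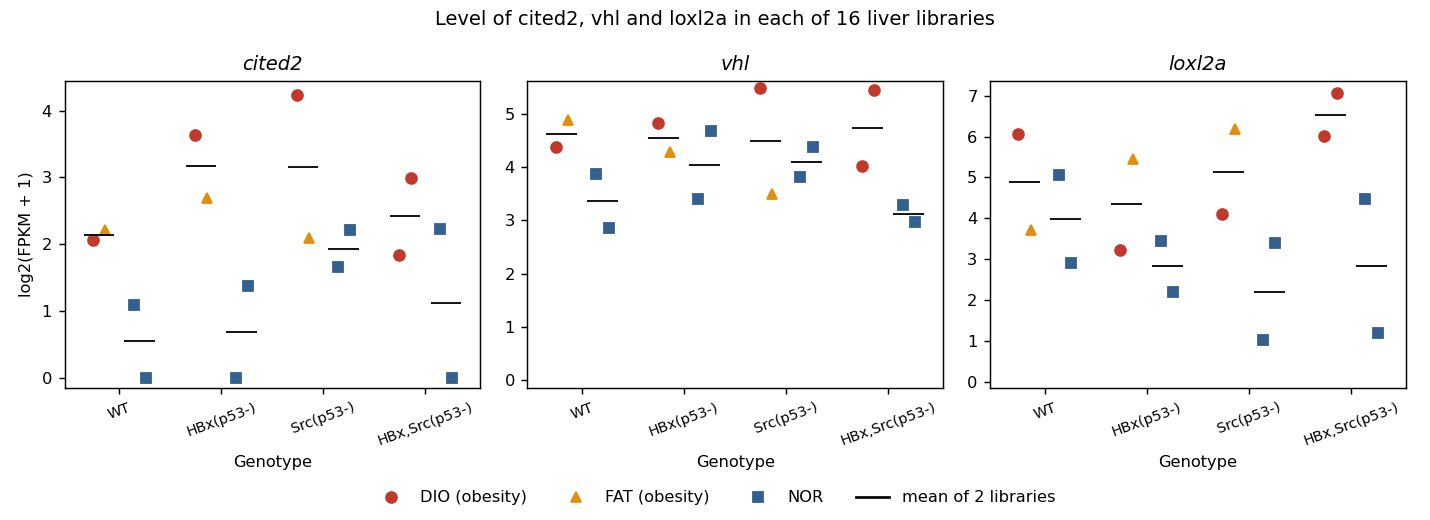
Level of cited2, vhl and loxl2a in 16 liver libraries as log2(FPKM + 1), drawn as for the 3 genes, with obesity libraries left of NOR libraries and lines at the mean of 2 libraries. All 8 obesity libraries of cited2 and of loxl2a exceed the NOR medians of 1.36 and 7.98 FPKM, and each of the genes shown overlaps between diets.

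Lists of genes with the roles of the 3 were described beside them, without them. In the common difference between obesity diet and NOR, limma called 0 of 33724 genes, while 1427 (4.23%) had an unadjusted p under 0.05. The median log2 difference was −0.02 over all genes and −0.10 over the 12319 genes averaging 1 FPKM or more. Of all genes 40.1% were higher and 59.9% lower, and of those averaging 1 FPKM or more 37.8% were higher and 62.2% lower. No gene of any list passed, so the values below are differences and not calls, and nothing is read from a list's counts beyond these shares.

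Among HIF pathway components (7 of 17 matched and tested) the median difference was 0.01 (0.27 over the 5 averaging 1 FPKM or more), with 4 higher and 3 lower, and 1 gene, cited2, was at least 2-fold higher. hif1al2 stood at 0.27, hif1ab at −0.26 and epas1b at −0.28. Of 51 hypoxia targets only 24 were matched. Among those other than the 3 genes (23 tested) the median was 0.05 (0.24 over the 17 averaging 1 FPKM or more), with 13 higher and 10 lower. Of these targets 2 were at least 2-fold higher: angptl4 at 1.54 (SE 0.85) and hmox1a, which breaks down heme, at 1.16 (SE 1.02). The angptl4 difference was 3.88 in HBx,Src(p53-) and 3.69 in Src(p53-), against −0.72 in WT and −0.71 in HBx(p53-). bhlhe40, a transcriptional repressor, stood at 0.53, while igfbp1a and igfbp1b, which bind insulin-like growth factors, stood at −0.76 and −0.72, and errfi1a, a feedback inhibitor of the EGF receptor, at −0.57. The igfbp1a difference ran from −4.13 in HBx(p53-) to 3.02 in Src(p53-), and WT NOR 1 held 7265 FPKM of it.

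Glycolysis (28 of 40 matched) had a median of −0.11 over the 24 genes tested other than aldoab, 18 of them lower and none past 2-fold. The median was −0.22 over the 16 averaging 1 FPKM or more. The lowest were pdk2b, which inhibits pyruvate dehydrogenase, at −0.68, ldhba, a lactate dehydrogenase, at −0.60 and pgam2, a phosphoglycerate mutase, at −0.43. The highest were slc16a3b, a lactate carrier, at 0.62, aldoaa at 0.38 and eno1a, an enolase, at 0.12. These common values average over opposite differences by genotype. The pdk2b difference (SE 1.18 for the common value) ran from −4.58 in HBx(p53-) to 4.02 in Src(p53-). That of ldhba ran from −2.24 in HBx(p53-) to 1.15 in HBx,Src(p53-), and that of eno1a from −2.40 in Src(p53-) to 1.64 in WT. Collagen modification, the role of p4ha2 (20 of 31 matched), had a median of −0.12 over the 19 genes tested, 13 of them lower. The median was −0.17 over the 11 averaging 1 FPKM or more. loxl2a, which cross-links collagen, stood apart at 2.27 (SE 0.67), with 8.40 to 132 FPKM on the obesity diet (median 53.2) and 1.01 to 32.2 FPKM on NOR (median 7.98), followed by plod1a at 0.08 and loxl1 at 0.00. p4hb, the partner of the P4ha subunits in collagen prolyl hydroxylase, stood at −0.56, plod3, a lysyl hydroxylase, at −0.83 and ppib, a prolyl isomerase, at −0.34. The fibrillar collagens (10 of 12 matched) had a median of −0.03 over the 8 genes tested, with col1a2 and col1a1b at −0.03 and −0.02. By genotype, plod1a ran from −1.21 in Src(p53-) to 1.02 in HBx(p53-), and col1a1b from −1.11 in HBx,Src(p53-) to 1.16 in Src(p53-).

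**Figure D5:**
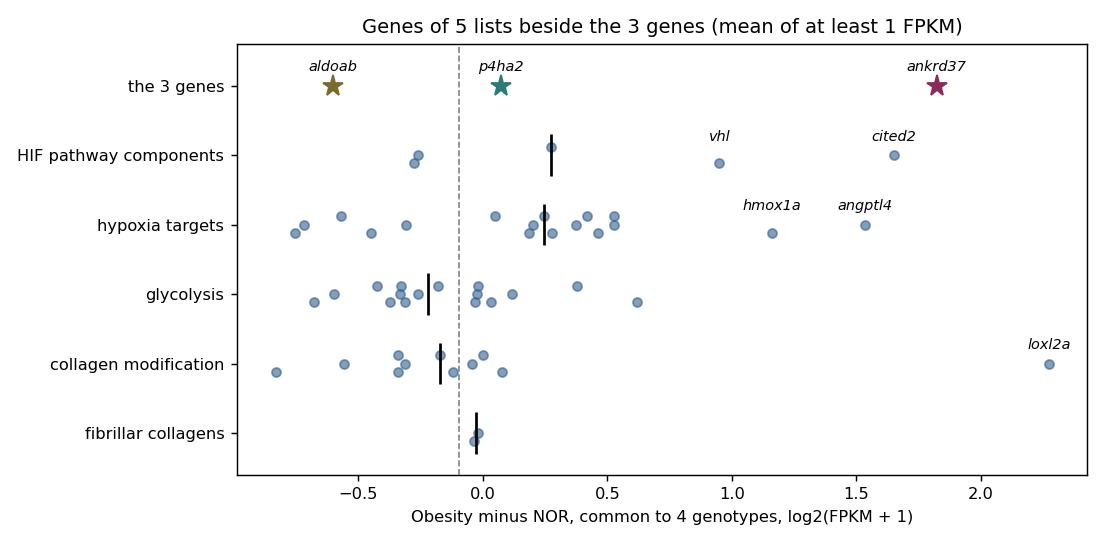
Common difference between obesity and NOR libraries in log2(FPKM + 1) for the 3 genes (stars) and for the genes of 5 lists that average 1 FPKM or more (circles), with a bar at each list's median and a dashed line at the median of such genes, −0.10. ankrd37 at 1.82 lies near cited2, angptl4 and loxl2a, and below loxl2a at 2.27. p4ha2 at 0.07 and aldoab at −0.60 also lie within the range of the lists.

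Other cell types were followed through their markers, since p4ha2, loxl2a and the collagens are at home in fibroblasts. The stellate and fibroblast markers (10 of 10 matched, 3 at 0 throughout) summed to 21.0 to 99.96 FPKM in obesity libraries and 24.2 to 74.6 FPKM in NOR libraries, led by colec11. Endothelial markers (5 of 9, led by egfl7) summed to 12.8 to 31.1 FPKM and 14.2 to 42.6 FPKM for obesity and NOR, and immune markers (7 of 9, led by cd74a) to 13.8 to 101 FPKM (median 60.5) and 19.2 to 109 FPKM (median 47.4). Exocrine pancreas markers, led by ctrb.1, summed to 5.08 to 362 FPKM and 6.28 to 269 FPKM, biliary markers (5 of 7, led by krt91) to 11.9 to 312 FPKM (median 42.9) and 14.4 to 133 FPKM (median 60.7), heart markers (8 of 9, led by myl7) to 0.142 to 19.9 FPKM and 0 to 9.68 FPKM, and ovary markers (5 of 7, led by zp3b) to 0 to 9.78 FPKM and 0.0222 to 21.5 FPKM. In each of these lists the diets overlapped. Red blood cell markers, given above with ankrd37, were led by hbaa1.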

How the data were processed

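RNA-seq of 16 zebrafish liver libraries was used. The authors aligned reads to GRCz10 (danRer10) with HISAT2 2.1.0, assembled transcripts with StringTie 1.3.4d and deposited FPKM computed with StringTie and Ballgown. Reads were not aligned again. Transcript names were matched to symbols of another assembly, used for names only (11763 of 12235 names), and 30 rows were summed into another row of their gene. Each of the 3 genes is 1 transcript row, so other transcripts of it are not counted.

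The log2(FPKM + 1) values were fitted with limma 3.58.1 (lmFit, eBayes with trend) in R 4.3.3, with Benjamini-Hochberg adjustment over 33724 genes. The common diet effect came from a model of genotype and diet, and genotype contrasts from 8 groups of genotype and diet. Correlations and permutation tests used Python 3.11.15. The fits were checked on simulated data. FPKM hold no whole-read steps, so no count test was run.

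The 3 genes, the lists and the tests were chosen with earlier results of these data known. From each list the text names the 3 genes highest and the 3 lowest in the common diet effect, among those averaging 1 FPKM or more, and any called. It also names the aldolases, of which 1 is not reported here, the 3 genes most like each of the 3 by Pearson r, the 5 most like their mean, and the most abundant gene of each marker list. Of the 8 female liver markers 0 were matched, so that list was not used. Alternatives were a pseudocount of 0.1, a filter at a mean of 1 FPKM, other scalings, a replicate block, each obesity diet alone, and each library left out.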

Additional observations from a re-analysis of the deposited data

Results flagged for a closer look

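Within groups of libraries, single values of each gene stood far from the rest, by their gap to the nearest library as a share of the whole range. Among 20 groups examined this gave 9 such values. The groups share libraries, and some values stood apart on the FPKM scale alone. The count is therefore not set against a rate expected by chance. For ankrd37 the Src(p53-) DIO library, at 26.8 FPKM, stood apart among the obesity, the DIO and the Src(p53-) libraries. For p4ha2 the HBx,Src(p53-) NOR 1 library, at 37.2 FPKM, stood apart among the NOR libraries. For aldoab the WT FAT library, at 70.7 FPKM, stood apart among the obesity and the WT libraries, HBx(p53-) NOR 2, at 107.9 FPKM, among the NOR and the HBx(p53-) libraries, and HBx,Src(p53-) NOR 1, at 21.0 FPKM, among the HBx,Src(p53-) libraries. On the log2(FPKM + 1) scale the values of ankrd37 and p4ha2 no longer stood apart, nor did that of aldoab among the NOR libraries. The other aldoab values did.

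For p4ha2 both obesity libraries lay above both NOR libraries in HBx(p53-) fish (log2 difference 1.78), where 9.6% of all genes did so. They lay below both in HBx,Src(p53-) fish (−1.70), where 18.7% of all genes did so. For aldoab both obesity libraries lay above both NOR libraries in WT fish (3.25, against NOR libraries listed at 0), where 9.47% of all genes did so. The DIO library among them had 0.257 FPKM. In HBx(p53-) fish both obesity libraries of aldoab lay below both NOR libraries (−3.46), where 11% of all genes did so. That order turns on 0.305 FPKM (DIO) against 0.446 FPKM (NOR 1), and the difference was −0.34 without NOR 2. These differences between genotypes were not tested.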

How the results depend on the processing

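The ankrd37 difference between diets kept its direction under every alternative run, with 2.46 at a pseudocount of 0.1 for the value common to 4 genotypes and 2.61 for HBx,Src(p53-), and aldoab in WT stood at 5.65 with that pseudocount. The difference of the 3 genes between obesity diet and NOR was not tested in any setting. Their 330 limma tests over all settings were of FAT minus DIO and of genotype, and none passed. p4ha2 turned negative between HBx,Src(p53-) and WT at a pseudocount of 0.1 (−0.0064), under equal totals (−0.094) and under quantile normalization (−0.26), and between Src carriers and non-carriers under equal totals (−0.025) and quantile normalization (−0.14). Genes called for FAT minus DIO were 2 at the pseudocount of 0.1, 0 with the filter at 1 FPKM, 3 under equal totals and 0 with the replicate block, against 1. Src carriers gave 112 at the pseudocount of 0.1, against 74. Src(p53-) minus WT gave 28 with the filter and 105 under quantile normalization, against 69, where HBx(p53-) minus WT gave 193, against 112, and HBx,Src(p53-) minus WT 247, against 375. The cause was not tested.

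With each library left out in turn, a lone library being assumed to vary like the others, genes called ran from 0 to 12 for FAT minus DIO, 165 to 962 for Src carriers, 76 to 941 for HBx(p53-), 46 to 1014 for Src(p53-) and 235 to 1453 for HBx,Src(p53-) against WT. With all libraries these counts were 1, 74, 112, 69 and 375, so the count for Src carriers lay below its range. The log2 difference of FAT minus DIO ran from −0.61 to 0.36 for ankrd37, −0.91 to 0.28 for p4ha2 and −0.36 (without WT FAT) to 3.95 for aldoab. Src carriers minus non-carriers ran from −0.12 (without Src(p53-) DIO) to 0.49 for ankrd37 and −0.21 to 0.41 for p4ha2. Against WT, HBx(p53-) ran from −0.38 to 0.85 for p4ha2 and −1.26 to 1.86 for aldoab, Src(p53-) from −0.30 to 0.92 for ankrd37, and HBx,Src(p53-) from −0.40 to 0.43 for p4ha2 and −1.95 to 0.97 for aldoab. Within genotypes the obesity difference ran from 0.33 to 6.16 for aldoab in WT, 0.54 to 3.01 for p4ha2 and −6.58 to −0.34 for aldoab in HBx(p53-), 0.93 to 3.37 for ankrd37 in Src(p53-) and −4.43 to 0.034 for aldoab in HBx,Src(p53-).

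Sample numbers are shared between groups by name only: deviations of same-numbered libraries correlated between −0.26 and 0.22 over 10 pairs of groups. With the replicate number as a block, genes called were 50 for Src carriers, 269 for HBx,Src(p53-), 47 for Src(p53-) and 93 for HBx(p53-) against WT, and 0 for the common diet difference, whose ankrd37 value stayed at 1.82. The values hold no read counts per gene, and the mapped reads that the authors list for each library were not used. No limit was therefore put on a listed 0.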
